A study of Mus musculus with 33 samples.

Results

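Mbnl1, Tra2a, Srsf10, Prpf39, Hnrnpf and Thoc7, genes whose products splice, package or export RNA, were followed through all 20 deposited tables of splicing events. They had been picked because earlier results listed them, were taken by gene symbol and held 8 of the 549 events in the tables, in 6 of 376 genes. A value of inclusion sets an exon, or the longer version of an exon that can end at either of a pair of sites, against the one alternative that the event names, in percent of both. It is not a share of all transcripts of the gene, since other forms do not enter it unless they share a junction or bases with the event. In choroid plexus, when both Dmpk alleles carried an expanded CTG repeat, exons or longer exon forms of Prpf39, Thoc7, Hnrnpf and Srsf10 were included less often than in wild type. In tibialis anterior (TA), a muscle of the lower leg, the longer form of a Tra2a exon was used less often, and in cultured myotubes an exon of Mbnl1 was included more often.

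The groups that hold these events are Dmpk 480/480 TA (3 libraries), Dmpk 480/480 myotubes differentiated in culture (3 libraries) and Dmpk 480/480 choroid plexus, the brain tissue that makes cerebrospinal fluid (2 values for 3 labelled libraries, with the one left out not stated). Each was set against Dmpk+/+ (wild type) of the same tissue (3 libraries). A further table set compares Dmpk +/480 myotubes, with 1 expanded allele, and holds no event of the 6 genes. The 480 allele holds 480 CTG repeats in the mouse Dmpk gene, all groups are on the FVB strain, and the mouse numbers in the labels show that each genotype gave all 3 tissues from 3 mice, so the tissues are not independent. Age and sex of the mice were not used here. The tables hold no expression levels, so neither the tissue labels nor the levels of the 6 genes were checked. In bulk tissue, a changed use of an exon within cells and a changed mixture of cells cannot be told apart.

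Pre-mRNA splicing joins exons at pairs of splice sites, and the choice among sites is steered by RNA-binding proteins. MBNL proteins bind expanded CUG repeat RNA in myotonic dystrophy, and their loss from other transcripts returns many exons to a fetal pattern. Serine/arginine-rich (SR) proteins and hnRNP proteins act on many exons together, often in opposite directions, and many of their genes regulate their own transcripts through exons that shift the reading frame or bring in a stop codon. Transcripts with an early stop are often removed by nonsense-mediated decay.

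The sequences of 5 of the alternative exons are shown first because their length and stop codons bear on what each form can encode. They were read from GENCODE M21 transcripts on mm10 and are given 5′ to 3′ on the transcribed strand. The Mbnl1 exon lies at chr3:60614683-60614736 on the plus strand. The Tra2a exon lies at chr6:49245476-49245610 on the minus strand, and its capitals mark the 6 bases held by the longer form alone. The Srsf10 exon lies at chr4:135863526-135863576 on the plus strand. The Prpf39 exon lies at chr12:65043715-65043877 on the plus strand, and its capitals mark the 53 bases that the 163-base form has and the 110-base form lacks. The Thoc7 exon lies at chr14:13957460-13957631 on the minus strand, and its capitals mark the first stop codon in the frame of the coding transcript.
Mbnl1, 54 bases: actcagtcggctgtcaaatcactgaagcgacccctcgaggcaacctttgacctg
Tra2a, 135 bases: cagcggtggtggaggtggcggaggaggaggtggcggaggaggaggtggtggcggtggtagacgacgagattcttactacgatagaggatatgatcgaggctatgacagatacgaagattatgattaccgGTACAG
Srsf10, 51 bases: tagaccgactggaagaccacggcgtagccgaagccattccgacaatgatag
Prpf39, 163 bases: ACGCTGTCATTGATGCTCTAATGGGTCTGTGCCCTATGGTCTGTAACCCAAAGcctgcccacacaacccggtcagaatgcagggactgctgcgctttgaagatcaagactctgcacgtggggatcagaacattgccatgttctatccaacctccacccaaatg
Thoc7, 172 bases: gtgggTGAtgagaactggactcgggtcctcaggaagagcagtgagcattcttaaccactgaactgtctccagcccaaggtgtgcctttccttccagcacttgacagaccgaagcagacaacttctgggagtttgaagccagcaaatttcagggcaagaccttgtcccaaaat

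An event is in the tables if it had 5 reads or more on average, a false discovery rate (FDR) up to 0.05 and a shift in inclusion of 10 points or more, by the authors' own limits. "Rose" and "fell" describe listed events only. Because the genes were chosen from these contrasts, their changes are a description and no test was added. With 3 libraries a group, exact permutation (two-sided) would reach p = 0.1 at the lowest. The reads behind each value are unknown beyond the authors' minimum, so no counting interval is given.

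**Figure D1:**
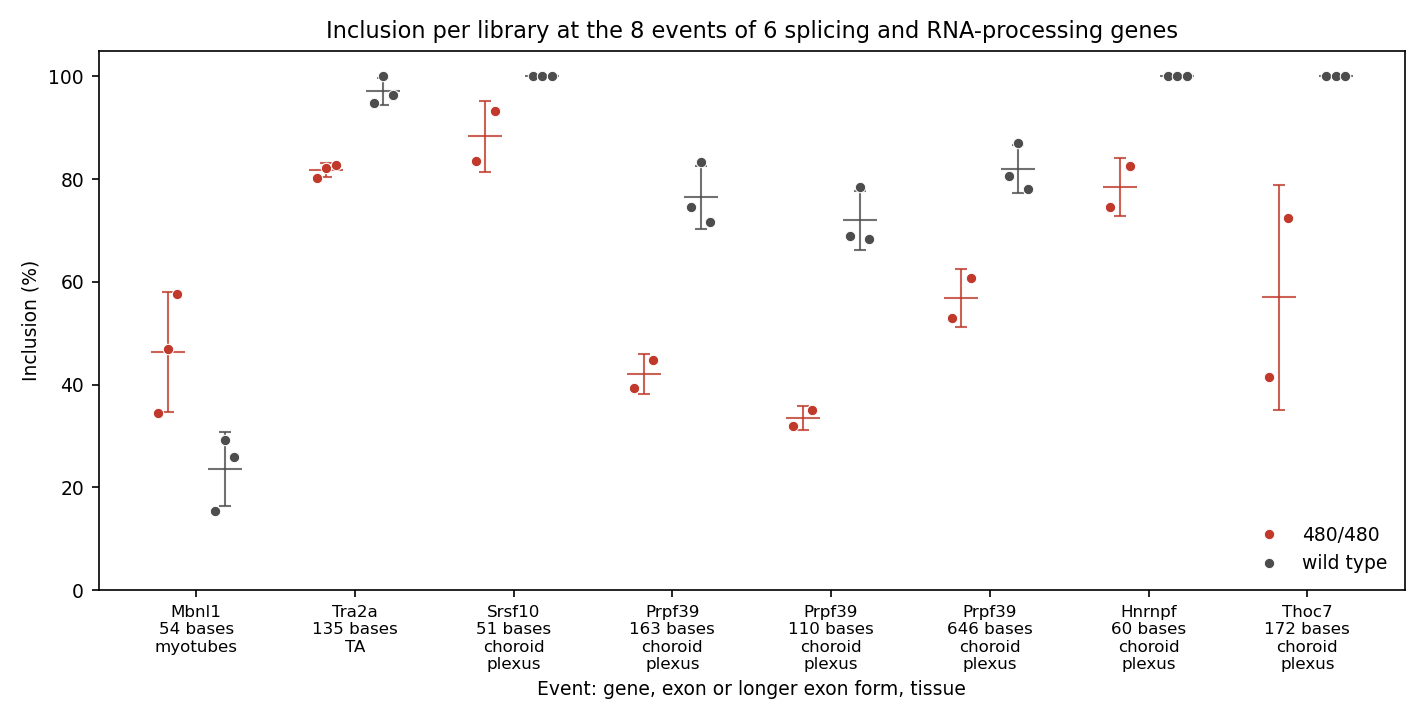
Inclusion in percent (vertical axis) for each library at the 8 events of the 6 genes (horizontal axis), with 480/480 libraries in red at left and wild-type libraries in grey at right of each event; bars are the mean and SD. Mbnl1 alone is higher in 480/480, and at none of the 8 events do the groups overlap, as is so for most listed events (71.6% in TA, 89.7% in 480/480 myotubes and 80% in choroid plexus).

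Mbnl1 encodes muscleblind-like 1, the splicing regulator most closely tied to myotonic dystrophy muscle. Its alternative coding exon of this length is known to favour a nuclear location of the protein, and MBNL1 protein itself is known to repress the exon. In 480/480 myotubes inclusion of the exon was 34.5%, 46.9% and 57.7%, against 15.4%, 29.3% and 25.9% in wild-type myotubes. All 3 values of 480/480 myotubes lay above all 3 of wild type, with the nearest pair 5.20 points apart. The exon averaged 46.4% ± 11.6 in 480/480 myotubes and 23.5% ± 7.25 in wild-type myotubes (SD, n = 3 each), so it rose by 22.8 points. The spread within 480/480 was wide: the larger SD of the groups was 11.6 points here, and the median over the 243 events of this comparison was 7.07 points. Groups did not overlap at 89.7% of those events, so the separation at Mbnl1 is what most events of the table show, and inclusion was higher at 39.1%. The authors' deposited table gives an FDR of 0.0496, the highest of its 184 skipped exons and just inside their limit.

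The Mbnl1 exon is 54 bases long and adds 18 codons without shifting the frame. In the coding transcript Mbnl1-218 the open reading frame has 347 codons with the exon and 329 without it, and both end at the same stop. GENCODE M21 holds 5 transcripts with the exon, 4 of them protein-coding, and 5 with the junction that skips it, 4 of them protein-coding. Both forms are therefore annotated proteins. Mbnl1 has no event in the tables of +/480 myotubes, 480/480 TA or 480/480 choroid plexus. A gene that is not listed may have changed by less than the limits or may have had too few reads, so this is no measure of an unchanged exon.

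Tra2a encodes transformer-2 alpha, an SR-related protein that promotes the use of exons with purine-rich enhancers. In TA its event is a choice between a pair of 5′ splice sites at a coding exon (chromosome 6, 49245476 to 49245610). The longer, 135-base form stood at 80.3%, 82.2% and 82.8% in 480/480 TA, against 94.9%, 100% and 96.4% in wild-type TA. The groups lay 12.1 points apart, and the 480/480 values differed among themselves by little. The longer form averaged 81.8% ± 1.31 in 480/480 TA and 97.1% ± 2.62 in wild-type TA (SD, n = 3 each), so it fell by 15.3 points. The shorter, 129-base form thus made up 18.2% of both forms in 480/480 and 2.90% in wild type.

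The Tra2a change was small for TA and tight. It ranked 71st in size of the 81 TA events, whose median change was 28.8 points. The larger SD of its groups was 2.62 points, and the median over all TA events was 15.9 points. Groups did not overlap at 71.6% of the TA events, and inclusion was lower at 42%. The authors' deposited table gives an FDR of 0.00808. The 2 forms differ by 6 bases, or 2 codons: the coding transcript Tra2a-201 has 282 codons and Tra2a-204 has 280, with the same stop. The 6 bases, printed above in capitals, begin with GT, the letters that open nearly every intron, so that the shorter form is cut before them.

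Srsf10 encodes an SR protein that, unlike most of its family, acts as a splicing repressor when dephosphorylated. Its 51-base coding exon (chromosome 4, 135863526 to 135863576) had an inclusion of 83.5% and 93.2% in 480/480 choroid plexus, against 100% in each of 3 wild-type libraries. Both 480/480 values were below all wild-type values, the nearer one by 6.80 points. Inclusion averaged 88.4% ± 6.86 in 480/480 (n = 2) and 100% ± 0 in wild type (n = 3), and it fell by 11.7 points with an FDR of 0.0239 in the authors' deposited table. This was the smallest change of the 8 events, 62nd of 68 skipped exons of choroid plexus. Without the first-listed 480/480 value the exon was 6.80 points lower, which is under the authors' limit of 10 points.

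Leaving out the Srsf10 exon removes 17 codons and keeps the frame. In the coding transcript Srsf10-203 the frame holds 182 codons with the exon and 165 without it, with the same stop in the last exon. GENCODE M21 holds 0 transcripts with the junction that skips the exon between these neighbours.

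Prpf39 encodes a component of the U1 snRNP, the particle that recognises 5′ splice sites. Its 3 events in choroid plexus overlap: a 110-base exon, a 163-base exon and a 646-base form of the preceding exon all end at the same base (chromosome 12, 65043877) and are joined to the same next exon. They also share the junction that passes over all of them, so their values rest in part on the same reads and count as 1 splice choice. The junction from their common last base to the next exon is shared as well, so reads from 1 form can count as inclusion of another. The 3 values add up to more than all transcripts and are not shares of Prpf39 mRNA. All 3 values fell in 480/480, and how much each single form changed cannot be read from them.

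Against the junction that passes over all forms, inclusion of the 110-base exon was 31.9% and 35.1% in 480/480 choroid plexus. Wild type stood at 69%, 78.5% and 68.4%. The gap between the groups, 33.3 points, was the widest of the 8 events. It averaged 33.5% ± 2.26 in 480/480 (n = 2) and 72.0% ± 5.67 in wild type (n = 3), and it fell by 38.5 points (authors' deposited FDR 0.00215). Inclusion of the 163-base exon was 39.3% and 44.8% in 480/480, against 74.5%, 83.4% and 71.6% in wild type. These groups lay 26.8 points apart, and inclusion fell by 34.5 points (authors' deposited FDR 0.00300). Inclusion of the 646-base form was 52.9% and 60.8% in 480/480, against 80.7%, 87.1% and 78% in wild type. It fell by 25.1 points, the least of the 3, with an FDR of 0.0212 in the authors' deposited table. In all 3 events the second-listed wild-type library was the highest and the first-listed 480/480 library the lowest.

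**Figure D2:**
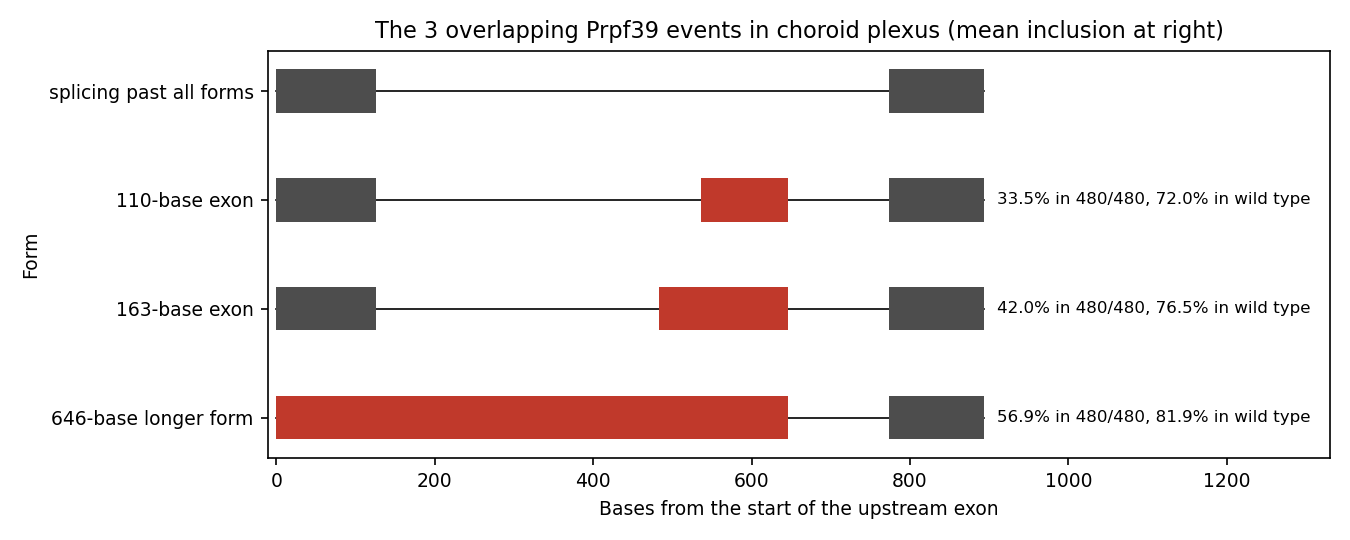
Forms of Prpf39 between a pair of coding exons, drawn to scale in bases from the start of the upstream exon (horizontal axis); grey boxes are the shared exons, red boxes the alternative exon or longer form, and lines introns. Mean inclusion of each event is printed at right and is lower in 480/480 for all 3, whose values share reads. The upstream exon is drawn at its full 126 bases, although the skipped-exon events list shorter starts for it.

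Passing over these forms gives the coding transcript Prpf39-201, with 665 codons. Put into its frame, the 163-base exon meets a stop codon at its base 19, after 154 codons and with 11 exon junctions still to come. The 110-base exon holds no stop in that frame but shifts it, and a stop follows at base 59 of the next exon, after 204 codons. The 646-base form, which keeps 520 bases of intron, meets a stop after 182 codons. In GENCODE M21 the 110-base exon is in 1 transcript, annotated as subject to nonsense-mediated decay. The 163-base exon is in 4, of which 1 is annotated in that way and 1 as coding from a start codon inside the exon. Read from the start codon of Prpf39-201, none of these forms therefore keeps its frame. The coding transcript that starts inside the 163-base exon has 87 coding bases there, and its frame in later exons was not followed. As a set the forms fell in 480/480 against the junction that passes over them, which keeps the frame of Prpf39-201. The splice sites of these forms are shown with the 2 intron bases at the boundary in capitals. First is the 3′ splice site of the 163-base exon (chr12:65043695-65043724), then that of the 110-base exon (chr12:65043748-65043777). Last is the 5′ splice site that ends the upstream exon (chr12:65043348-65043367). That site is used with either exon as well as when all forms are passed over, and only the 646-base form runs past it.
163-base exon, 3′ splice site: cttattgcatttttggtcAGacgctgtcat
110-base exon, 3′ splice site: ctatggtctgtaacccaaAGcctgcccaca
Upstream exon, 5′ splice site: atcagatgagGTgcgtacat

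Hnrnpf encodes hnRNP F, which binds runs of G and regulates exons that carry them. Its 60-base exon (chromosome 6, 117907149 to 117907208) had an inclusion of 74.5% and 82.5% in 480/480 choroid plexus, against 100% in each of 3 wild-type libraries. The groups lay 17.5 points apart. Inclusion averaged 78.5% ± 5.66 in 480/480 (n = 2) and 100% ± 0 in wild type (n = 3), and it fell by 21.5 points (authors' deposited FDR 0.00458). The exon lies in the 5′ untranslated part of the transcript, ahead of the start codon, so its loss leaves the coding sequence as it is. It is in 1 GENCODE M21 transcript, and the junction that skips it is in 2, all protein-coding. An uncharacterised gene of the other strand, 4933440N22Rik, overlaps the exon. The kit keeps strand, per the labels, and the strand setting of the counting was not found in the labels.

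Thoc7 encodes a subunit of the THO complex, which couples transcription to packaging and export of mRNA. Its 172-base exon (chromosome 14, 13957460 to 13957631) had an inclusion within the event of 41.5% and 72.5% in 480/480 choroid plexus. Inclusion was 100% in each of 3 wild-type libraries. Both values were far below wild type, by at least 27.5 points, but they differed from each other by more than that. Inclusion averaged 57.0% ± 21.9 in 480/480 (n = 2) and 100% ± 0 in wild type (n = 3). The exon fell by 43.0 points, the largest change of the 8 events and 13th in size of the 115 in choroid plexus. Its FDR in the authors' deposited table, 9.24e-05, was the second lowest of the 68 skipped exons. With 1 of the 480/480 values left out, the change was a fall of 27.5 or of 58.5 points.

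The Thoc7 exon is not in the coding transcript. GENCODE M21 holds it in 2 transcripts, both without an annotated reading frame, and the coding transcript Thoc7-201 joins its first exon to one beyond both the 172-base exon and the neighbour that the event uses. The exon has a length of 172 bases, which is not a multiple of 3. Put into Thoc7-201, it gives a stop at its base 6, after 8 codons, where Thoc7-201 has 204. GENCODE M21 holds 0 transcripts with the junction that skips the exon between the event's neighbours. It also holds 0 with both inclusion junctions, and some with 1 of them alone. The inclusion of 100% in wild type thus describes reads assigned to the event, and not the share of all Thoc7 transcripts, which the tables do not give. The neighbour on the far side (chromosome 14, 13957062 to 13957180) is in 1 GENCODE M21 transcript.

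**Figure D3:**
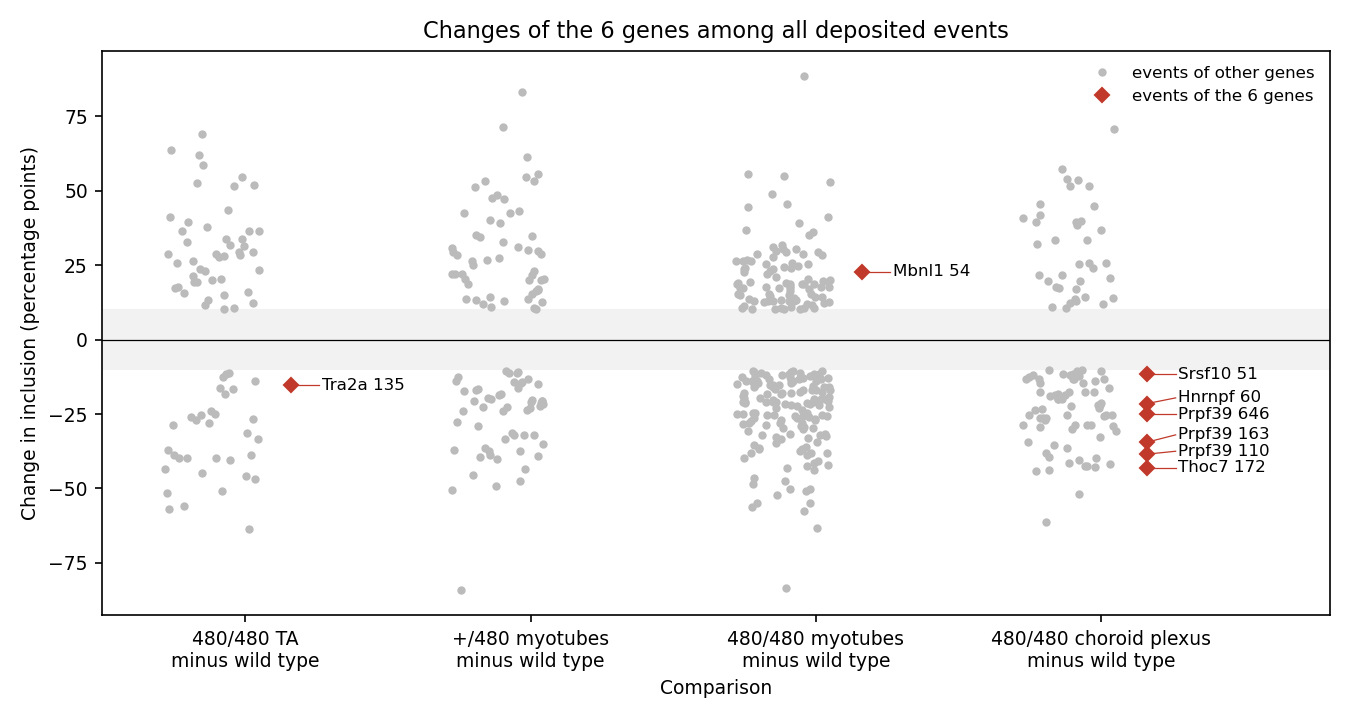
Change in inclusion in percentage points, expansion minus wild type (vertical axis), for every deposited event in the 4 comparisons (horizontal axis); grey dots are other genes, red diamonds the 6 genes with the length of the exon in bases, and the pale band the changes under 10 points that the authors left out. The 6 events of choroid plexus lie below zero, Tra2a lies near the band and Mbnl1 is the only one above zero.

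In 480/480 choroid plexus all 6 events of the 4 genes were lower, where 67% of the 115 events of this comparison were lower (75% of its 68 skipped exons). With 1 event per gene the count is 4. Groups did not overlap at any of the 6, against 80% of all events. These shares come from the contrast that chose the genes, and nothing is read from them. The median size of the 6 changes was 29.8 points and that of all choroid plexus events 25.2. The median of the larger SD was 5.91 points for the 6 and 10.7 for all. Wild type was at 100% in every library at 3 of the 6 events (Srsf10, Hnrnpf and Thoc7) and at 12.2% of all choroid plexus events.

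**Figure D4:**
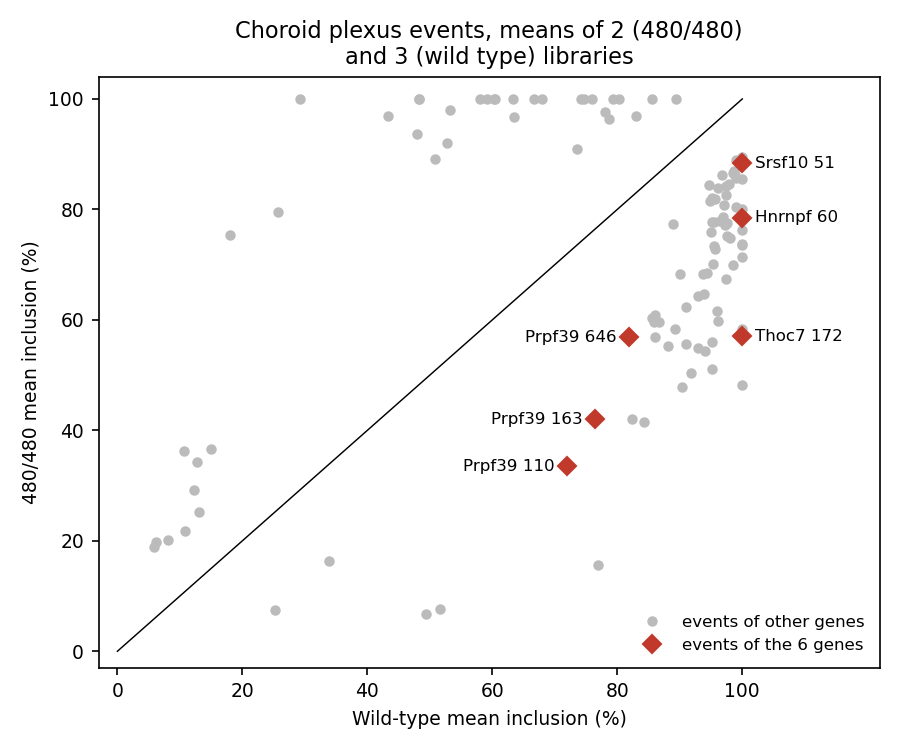
Mean inclusion in 480/480 (vertical axis, percent, 2 libraries) against mean inclusion in wild type (horizontal axis, percent, 3 libraries) for each choroid plexus event; the line marks equal values. The events of Srsf10, Hnrnpf and Thoc7 stand at 100% in wild type, the 3 Prpf39 events between 72.0% and 81.9%, and all lie below the line.

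Of the 2 values of 480/480 choroid plexus, the first in the list was the lower one at all 6 events, which cover 4 splice choices. Over all 115 choroid plexus events the first was lower at 60, higher at 38 and equal at 17, and among the 77 events that fell it was lower at 49 (63.6%). The labels do not say which mice these values come from, and what part 1 library has in the 6 events was not tested. At each of the 6 the second value alone still lay below every wild-type library, by 6.80 points at Srsf10 and by 17.2 points or more at the others.

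The 6 genes differ in what their alternative part can do to the protein. Mbnl1, Tra2a and Srsf10 have alternative parts of 54, 6 and 51 bases, which all keep the frame. The exons of Prpf39 (110 and 163 bases) and Thoc7 (172 bases) do not have lengths that are multiples of 3, and the Hnrnpf exon lies outside the coding sequence. The Thoc7 exon is coding in no GENCODE M21 transcript, so what its loss does to the protein is not known from the annotation.

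MBNL proteins bind RNA at the letters TGCT or TGCC and also at CGCT or CGCC (written as DNA), and the exons were searched for these on the transcribed strand, overlapping matches included. The Mbnl1 exon held 0 matches, and 43.3% of 1359 other internal exons of 54 bases in GENCODE M21 held at least 1. The Tra2a form held 0 (84.2% of 1475 others of its length held at least 1) and the Srsf10 exon 0 (41.5% of 702). The Prpf39 163-base exon held 7, and the median of 1133 other exons of that length was 2, with 2.12% holding as many or more. The 110-base form, which is part of it, held 4, and 8.83% of 1348 others held as many or more. The 646-base form, which contains both, held 11, and the median of 10 others of its length was 11.5, with 60% holding as many or more. The Hnrnpf exon held 1 (48.2% of 912 held at least 1) and the Thoc7 exon 1 (90.7% of 781). Introns beside the exons, where such letters also matter, were not searched, and a match shows no binding.

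Among 230 genes listed for splicing and RNA processing in 8 roles, 8 had an event in any table, the 6 genes and another 2. The list is not complete, and the counts hold for its genes only. Among the genes it leaves out is Clasrp, with a retained intron that rose in 480/480 TA (91.4%, against 68.0% in wild type). Another is Arglu1, with a retained intron that fell in 480/480 myotubes (38.1%, against 54.8% in wild type). These are examples: Pan2, Tsen54, Wdr83 and Cnot2 also have events and are not in the list. By comparison the listed genes were 1 of the 69 genes with an event in 480/480 TA, 1 of 88 in +/480 myotubes, 3 of 169 in 480/480 myotubes and 4 of 106 in 480/480 choroid plexus. The events comprised 1 lower in TA, 1 lower in +/480 myotubes, 1 higher and 2 lower in 480/480 myotubes and 6 lower in choroid plexus. By role, 2 of 17 SR and SR-related genes, 2 of 25 hnRNP genes, 1 of 74 core spliceosome genes, 1 of 16 THO and export genes, 1 of 22 cleavage and polyadenylation genes and 1 of 49 muscle and brain splicing regulators had an event. None of the 8 kinases of SR proteins or the 19 genes of the exon junction complex and nonsense-mediated decay did.

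The other two listed genes changed in myotubes. Syncrip, which encodes hnRNP Q, had a 160-base exon at 70.3%, 76.3% and 81.5% in 480/480 myotubes, against 86.6%, 97.7% and 91.9% in wild-type myotubes, without overlap of the groups. Its inclusion fell, with means of 76.0% ± 5.60 in 480/480 and 92.1% ± 5.55 in wild type (SD, n = 3 each). Sympk, whose product is a scaffold of the mRNA 3′ end cleavage machinery and whose gene lies near Dmpk on the same chromosome, had a 126-base exon at 13.8%, 11.6% and 11.1% in 480/480 myotubes and at 20.3%, 20.6% and 11.6% in +/480 myotubes, against 42.7%, 41.9% and 27.6% in the wild-type myotubes that both share. Its mean inclusion fell by 25.2 points in 480/480 and by 19.9 points in +/480 myotubes, and it was the 1 listed gene in more than 1 comparison.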

How the data were processed

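RNA was sequenced from 33 libraries in 11 labelled groups, and the tables cover 7 groups. The submitters' processing notes name FastQC, STAR and mm10. Which program called events was not given in the sources used. The authors filtered to at least 5 reads on average, an FDR of at most 0.05 and a difference of at least 0.1, per the file headers. Inclusion was deposited as a fraction for each library, with the authors' p-values and FDR and a difference score of wild type minus expansion. These p-values were taken as deposited.

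Fractions were turned into percentages and changes were recomputed as expansion minus wild type from group means. They lay within 0.05 points of the deposited differences. Replicates are separate mice, per the labels. Libraries are named by list position, since values come without replicate numbers. All 6 gene IDs matched GENCODE M21, whose GRCm38 coordinates are those of mm10. Frames were read by adding or removing exons in its transcripts. The genes, the list of 230 genes and the rule that names every event of the 6 genes and every listed gene with an event were chosen with earlier results of these data known. The alternatives were leaving out each library, medians, a logit scale, stricter limits and, added after the data were seen, 1 event per gene. The calculation was tested on simulated data with wild-type inclusion in the middle of the range and a fixed spread. These do not cover the events that stand at the upper bound in wild type. Other copies of these genes in the genome were not searched for. Software was matplotlib 3.10.9, SciPy 1.17.1 and NumPy 2.4.6 under Python 3.11.15.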

Additional observations from a re-analysis of the deposited data

How the results depend on the processing

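All 42 values obtained by leaving out 1 library kept the sign of the change, as did all 8 differences of medians and all 8 differences on a logit scale bounded at 1% and 99%. Groups did not overlap at any of the 8 events, so none of these settings could reverse a sign, and the kept signs test nothing. The ranges without 1 library were 17.2 to 28.8 points for Mbnl1, -16.4 to -13.9 for Tra2a, -16.5 to -6.80 for Srsf10, -37.2 to -31.0, -40.3 to -35.2 and -29.0 to -21.1 for the 163-base, 110-base and 646-base forms of Prpf39, -25.5 to -17.5 for Hnrnpf and -58.5 to -27.5 for Thoc7. At an authors' FDR of 0.01 or less the count of higher events was 0 in place of 1, since the Mbnl1 event was the one left out, and the count of lower events was 5 in place of 7. Without events in which a group is at 0% or 100% in every library the lower events numbered 4. No paired analysis was possible because values in the lists come without replicate numbers. Flanking introns were not searched for motifs, as had been intended, for want of intron sequence. Depth per event was not used here.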
